A study of Mus musculus with 20 samples.

Results

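This account concerns 6 genes by which circulating leukocytes attach to the vessel wall: the selectins Selp (P-selectin) and Sele (E-selectin), the sulfotransferase Chst4, and the integrin chains Itgal, Itgam and Itgb2. They were chosen by symbol. Each had 1 assay, so that 6 of the 648 assays on a TaqMan OpenArray mouse inflammation panel and 6 of its 584 gene symbols are described. The panel was read by real-time PCR on total RNA from mouse ileal mucosa in 20 samples, 5 in each of 4 groups. The CEC group received DNBS (dinitrobenzene sulfonic acid, a hapten used to provoke colitis) into the rectum and an oral treatment that the labels call CEC. The Nissle group received the same DNBS and oral Nissle, the name of a probiotic strain of Escherichia coli. The DNBS group received DNBS and oral phosphate-buffered saline (PBS), and the healthy controls received PBS by both routes. Strain, sex, age and times are not stated in the labels used here. The series text speaks of RNA being pooled over mice before measurement while the samples are numbered singly, so it is unclear whether a sample is 1 mouse. The p-values below reflect the spread among the samples of a group, part of which may be technical.

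Leukocytes leave the blood in steps. Selectins on activated endothelium slow them by binding sulfated and sialylated sugars, chemoattractants then switch their integrins to an adhesive state, and the integrins hold them on the vessel wall so that they can cross it. P-selectin is stored in endothelial cells and platelets and moved to the surface within minutes, whereas E-selectin has to be transcribed after cytokines such as TNF act on the endothelium; in mice the Selp gene responds to the same cytokines. The enzyme made from Chst4 adds sulfate to selectin ligands and is best known from the high endothelial venules of lymphoid tissue. Itgal and Itgam encode alpha chains that each pair with the beta chain from Itgb2, forming LFA-1, found on most leukocytes, and Mac-1, found mainly on neutrophils, monocytes and macrophages.

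Both selectin genes lie on mouse chromosome 1. The 250 bases before each start site are shown because the transcripts of these 2 genes were compared throughout. Capitals mark matches, on either strand, to 3 motifs: GGG and CC with any 5 bases between them (the type bound by NF-kB), TGACATCA (the ATF/CRE type) and TATAAA (the TATA box). The sequences are from RefSeq, GRCm38.p6, plus strand, and run 5′ to 3′.
Selp, chr1:164115014-164115263: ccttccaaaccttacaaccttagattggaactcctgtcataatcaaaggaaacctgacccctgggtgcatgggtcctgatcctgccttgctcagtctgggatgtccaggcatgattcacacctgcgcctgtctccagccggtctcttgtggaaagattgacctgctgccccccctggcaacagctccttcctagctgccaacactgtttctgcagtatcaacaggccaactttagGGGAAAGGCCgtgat
Sele, chr1:164047984-164048233: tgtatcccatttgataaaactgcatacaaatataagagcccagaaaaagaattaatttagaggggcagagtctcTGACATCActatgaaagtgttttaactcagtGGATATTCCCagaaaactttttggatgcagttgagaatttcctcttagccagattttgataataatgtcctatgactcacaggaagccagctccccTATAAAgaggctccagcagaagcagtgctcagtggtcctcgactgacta
In Selp the only match was of the NF-kB type, at positions -15 to -6 counted from the start site. Sele held one of the NF-kB type on the minus strand at positions -145 to -136, one of the ATF/CRE type at -176 to -169 and a TATA box at -49 to -44. Of 32851 promoters of this length, 45.8% held the first motif, 2.93% the second and 12.4% the third. The matches describe letters and are not evidence of binding.

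Values are cycle thresholds (Ct), the PCR cycle at which the signal crosses a threshold. A Ct of 40 stands for no amplification and is called undetermined. The relative level used below is the Ct of the assay subtracted from the average Ct of the 544 assays determined in all samples. It is on the log2 scale under the assumption that product doubles per cycle, and higher means more transcript. Levels of different assays are not compared. Between 570 and 594 assays had a value per sample, and that average lay between 22.6 and 24.3. The epithelial markers of the labelled tissue were present: 2 of the 3 listed markers with an assay, Apoa1 and Ccl25, made by small intestinal epithelium, had a mean level of 7.08 in the CEC group, 6.50 in the Nissle group, 5.94 after DNBS alone and 7.01 in healthy mucosa. The third, Apoa4, was undetermined in all samples. None of the 11 endothelial markers listed was on the panel. Fewer endothelial cells or leukocytes in a sample and less RNA per cell cannot be told apart in such bulk RNA.

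Some points about the samples bear on the values. For Nissle 3, 4 and 5, 1 label names the healthy controls while the title and both treatments name the Nissle group, and they were kept there. Nissle 1 had the highest mean level of 7 neutrophil markers, 2.29, against -2.47 to -1.42 in the other Nissle samples. In addition, 172 of 11686 determined values (1.47%) equalled the mean Ct of the other 4 samples of their group to within 2e-06 cycles. Of these, 5 belonged to the genes described here: Itgam in CEC 5, Nissle 5 and healthy 5, and Sele in CEC 7 and DNBS 5. The sources used here do not say how those values arose. They are called group-mean values, and the main results on Itgam and Sele are also given without them.

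**Figure D1:**
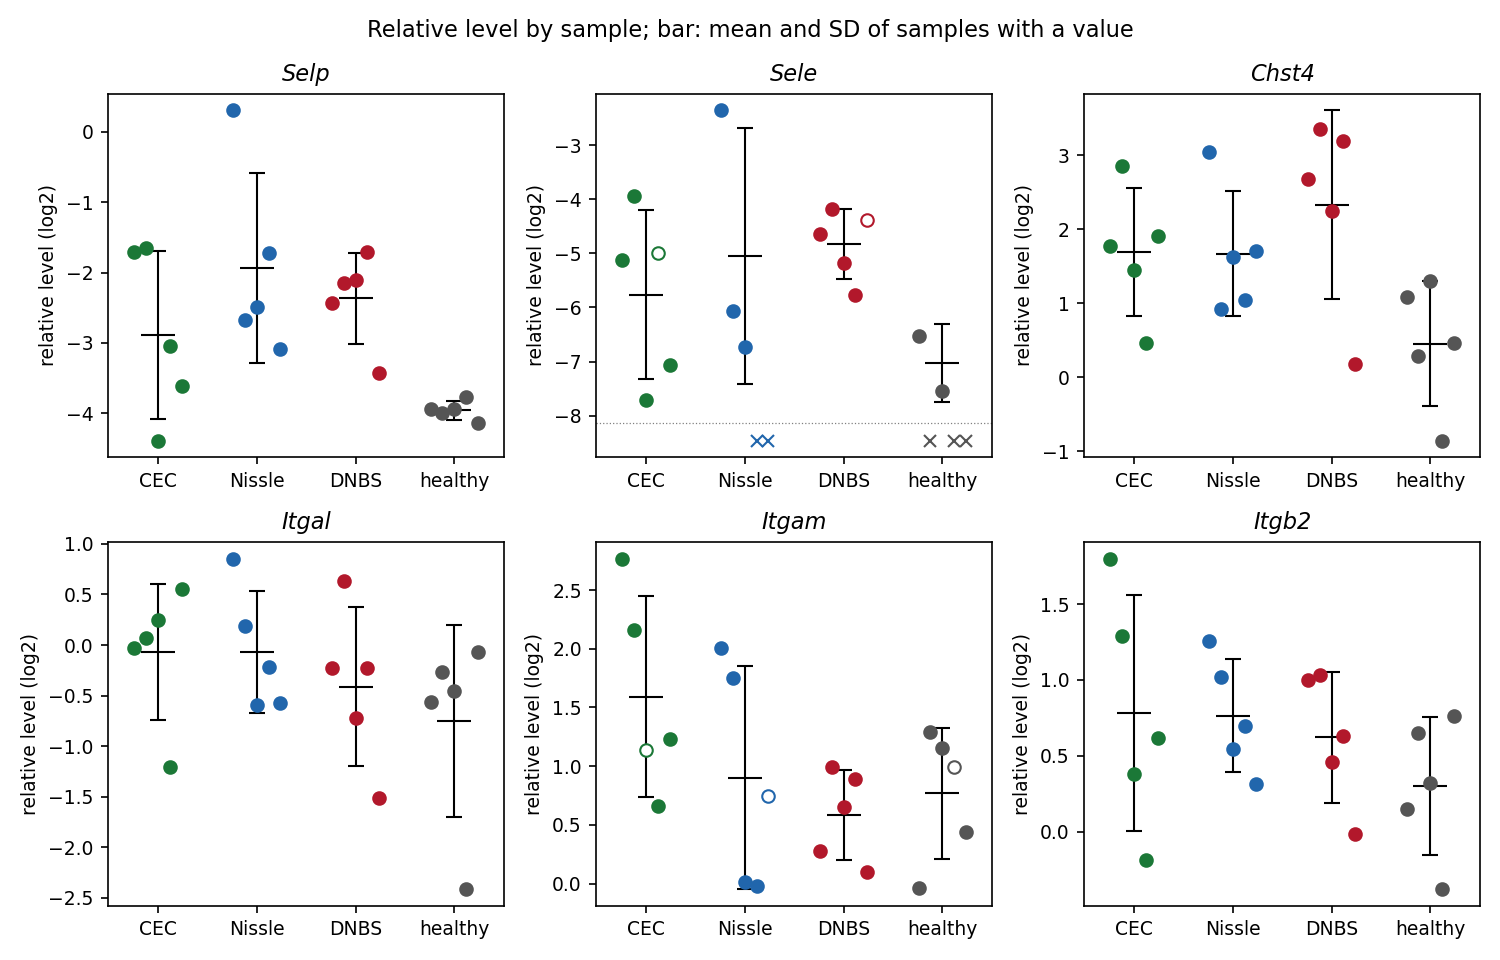
Relative level (log2, vertical axis) of each gene by sample in the CEC, Nissle, DNBS and healthy groups, with the mean and SD of the samples that had a value. Open circles are group-mean values, and crosses under the dotted line are undetermined samples, which have no level. The healthy Selp values lie together between -4.14 and -3.77, and all 5 DNBS and all 5 Nissle samples lie above them.

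Selp had the smallest SD of the 6 genes in healthy mucosa. Its mean level and its SD were higher in each DNBS-treated group, but the spread was not tested. Its relative level was -1.71, -1.66, -4.39, -3.04 and -3.61 in CEC 1, 3, 5, 7 and 8. In Nissle 1 to 5 it was 0.31, -2.67, -2.50, -1.72 and -3.08, and in DNBS 1 to 5 it was -2.44, -2.15, -2.11, -1.71 and -3.43. In healthy 1b, 3, 4, 5 and 6 it was -3.93, -4.0, -3.94, -3.77 and -4.14. All Nissle and all DNBS samples exceeded the highest healthy sample, as did 4 of 5 CEC samples, CEC 5 being below every healthy sample. Such a full separation upwards was found for 3 of 569 tested assays (0.527%) between the Nissle group and the healthy controls, and for 13 (2.28%) between the DNBS group and the healthy controls. It was found for 2 assays (0.351%) in the CEC group, and for 0 (0%) in the 3 treated groups as a whole, where 14 of 15 samples exceeded the healthy ones for Selp. Nissle 1 was the highest of the 20 samples.

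The mean Selp level was -2.88 ± 1.19 in the CEC group, -1.93 ± 1.35 in the Nissle group, -2.37 ± 0.65 after DNBS alone and -3.96 ± 0.13 in healthy controls (SD, n = 5 each). Against the healthy controls it was 4.07-fold higher in the Nissle group (log2 difference 2.02, SE 0.59, limma adjusted p = 0.458), the third smallest p of 569. With 1 sample left out at a time, this Nissle difference lay between 1.46 and 2.31. The difference was 1.59 (SE 0.59, limma adjusted p = 0.158) for the DNBS group and 1.07 (SE 0.59, limma adjusted p = 0.803) for the CEC group. The 3 DNBS-treated groups together were 2.95-fold higher (1.56, SE 0.48, limma adjusted p = 0.354). These comparisons share the same 5 healthy samples. None passed the threshold of 0.05 with equal weight for all samples. With samples weighted by their agreement with their group (limma array weights), the DNBS difference was 1.82 and passed (adjusted p = 0.00744), in a fit that called 101 of 569 assays. Between the treated groups, Selp differed by -0.52 in the CEC group against the DNBS group (95% interval -1.74 to 0.70), by 0.43 in the Nissle group against the DNBS group (-0.79 to 1.65), and by -0.95 in the CEC group against the Nissle group (-2.17 to 0.27). Without Nissle 1, the sample with the highest Selp level, the Nissle group differed from the DNBS group by -0.13.

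Sele was the rarest of the 6 transcripts by detection. Counting the group-mean values of CEC 7 and DNBS 5, it had a value in every CEC and DNBS sample. It had one in 3 of 5 Nissle samples and in 2 of 5 healthy samples. Its relative level was -5.11, -3.94, -7.71, -5.00 and -7.06 in CEC 1, 3, 5, 7 and 8, with a group-mean value in CEC 7. In Nissle 1, 2 and 3 it was -2.34, -6.07 and -6.73, and Nissle 4 and 5 were undetermined. In DNBS 1 to 5 it was -4.64, -4.19, -5.19, -5.78 and -4.38, the last a group-mean value. In healthy 1b and 4 it was -6.52 and -7.54, and healthy 3, 5 and 6 were undetermined. All DNBS samples exceeded both healthy samples that had a value, as did CEC 1, 3 and 7 and Nissle 1 and 2.

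With 2 healthy values Sele could not be fitted with the other assays, so it was compared by detection and by rank, undetermined samples taking the lowest rank. Detection in 5 of 5 DNBS samples against 2 of 5 healthy samples gave p = 0.167 (two-sided Fisher's exact test, adjusted p = 0.931 over 67 assays), and 13 of 15 DNBS-treated samples against 2 of 5 healthy samples gave p = 0.0726 (adjusted p = 0.378 over 78 assays). Without the group-mean values, 4 of 4 DNBS samples against 2 of 5 healthy samples gave p = 0.167 (Fisher's exact test, adjusted p = 0.917). For the DNBS-treated samples, 11 of 13 against 2 of 5 then gave p = 0.0987 (Fisher's exact test, adjusted p = 0.543). By rank, the DNBS group differed from the healthy controls with p = 0.00794, the smallest that an exact permutation test of 5 against 5 can give, and with an adjusted p of 0.0556 over 7 comparisons. The exact permutation p was 0.0476 (adjusted 0.111) for the CEC group, 0.365 (adjusted 0.511) for the Nissle group, and 0.0184 (adjusted 0.0643) for the 3 DNBS-treated groups, each against the healthy controls. Without the group-mean values the adjusted p was 0.241 for the CEC group, 0.111 for the DNBS group and 0.116 for the 3 groups (exact permutation tests). The CEC and DNBS groups, both with 5 values, had mean levels of -5.76 ± 1.57 and -4.83 ± 0.65 (SD, n = 5 each, 1 of them a group-mean value in each group) and differed by rank with p = 0.548 (exact permutation test).

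Of the 5 genes fitted with limma, Chst4 had the largest difference between the DNBS group and the healthy controls. Its relative level was 1.77, 2.85, 1.45, 0.46 and 1.90 in CEC 1, 3, 5, 7 and 8. In Nissle 1 to 5 it was 3.04, 0.92, 1.63, 1.04 and 1.71, and in DNBS 1 to 5 it was 2.68, 3.35, 2.25, 3.19 and 0.18. In healthy 1b, 3, 4, 5 and 6 it was 1.08, 0.29, 1.30, -0.86 and 0.46. Of the DNBS samples 4 of 5 exceeded the highest healthy sample, with DNBS 5 among the healthy values. The same held for 4 of 5 CEC samples and 3 of 5 Nissle samples.

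The mean Chst4 level was 1.69 ± 0.86 in the CEC group, 1.67 ± 0.85 in the Nissle group, 2.33 ± 1.28 after DNBS alone and 0.45 ± 0.85 in healthy controls (SD, n = 5 each). The DNBS group was 3.67-fold higher than the healthy controls (log2 difference 1.88, SE 0.56), which did not pass (limma adjusted p = 0.122). It passed with array weights (1.85, adjusted p = 0.00521), in a fit that called 101 of 569 assays. Without DNBS 5 it also passed (2.41, limma adjusted p = 0.0238), in a fit that called 7 assays. This was the only 1 of 20 omissions of a single sample that passed. DNBS 5 was the lowest DNBS sample, so leaving it out had to raise the difference. The array weights gave little weight to DNBS 5 (0.39) and also to healthy 5 (0.26), the lowest healthy sample. Why the weighted difference passed was not tested. The differences were 1.23 for the CEC group (limma adjusted p = 0.803) and 1.21 for the Nissle group (limma adjusted p = 0.5), against the same healthy samples. The CEC and Nissle groups stood 0.64 and 0.66 below the DNBS group, and the 95% intervals of these differences, -1.81 to 0.53 and -1.83 to 0.51, include 0.

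The Chst4 assay lies within a single exon, as its assay identifier shows, and such assays can also amplify genomic DNA. The 53 tested assays of this kind had a median difference of -0.65 between the DNBS group and the healthy controls, -0.20 between the CEC group and the healthy controls, and -0.43 between the Nissle group and the healthy controls. Chst4 was higher in all 3 comparisons. Between the CEC and DNBS groups, where Chst4 differed by -0.64, the 53 assays had a median of 0.64 and 43 of them were higher in the CEC group. The part of genomic DNA in the Chst4 values was not tested.

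Itgal, the alpha chain of LFA-1, overlapped between all groups. Its relative level was -0.03, 0.07, 0.25, -1.21 and 0.56 in CEC 1, 3, 5, 7 and 8. In Nissle 1 to 5 it was 0.86, 0.18, -0.59, -0.21 and -0.58, and in DNBS 1 to 5 it was -0.23, 0.63, -0.72, -0.23 and -1.51. In healthy 1b, 3, 4, 5 and 6 it was -0.56, -0.27, -0.45, -2.42 and -0.07. Healthy 5 was the lowest sample. The difference from the healthy controls was 0.68 in the CEC group (95% interval -0.28 to 1.64), 0.68 in the Nissle group (-0.28 to 1.64) and 0.34 in the DNBS group (-0.62 to 1.30), with limma adjusted p-values of 0.803, 0.575 and 0.802.

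Itgam, the alpha chain of Mac-1, was highest in 2 CEC samples, and its largest difference was that between the CEC and DNBS groups. Its relative level was 2.77, 2.16, 1.13, 0.66 and 1.23 in CEC 1, 3, 5, 7 and 8. In Nissle 1 to 5 it was 2.01, 1.75, 0.01, -0.02 and 0.75, and in DNBS 1 to 5 it was 0.28, 0.99, 0.65, 0.89 and 0.10. In healthy 1b, 3, 4, 5 and 6 it was -0.04, 1.29, 1.15, 1.0 and 0.44, those of CEC 5, Nissle 5 and healthy 5 being group-mean values. Of the CEC samples 4 of 5 lay above the highest DNBS sample, and CEC 7 lay within the DNBS range. Full separation upwards was found for 11 of 569 assays in this comparison (1.93%), for 1 between Nissle and DNBS (0.176%) and for 2 between CEC and Nissle (0.351%), with none of the 5 fitted genes among them. The mean was 1.59 ± 0.85 for CEC and 0.58 ± 0.38 for DNBS (SD, n = 5 each), a 2.01-fold difference that did not pass (log2 difference 1.01, SE 0.43, limma adjusted p = 0.444). Without the group-mean values it was 1.12 (SE 0.51, limma adjusted p = 0.453). Against the healthy controls Itgam differed by 0.82 in the CEC group (limma adjusted p = 0.803), 0.13 in the Nissle group (adjusted p = 0.920) and -0.18 in the DNBS group (adjusted p = 0.894).

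Itgb2, the beta chain shared by LFA-1 and Mac-1, had the smallest spread of the 3 integrin chains within the Nissle group and the healthy controls. Its relative level was 1.80, 1.29, 0.38, -0.19 and 0.62 in CEC 1, 3, 5, 7 and 8. In Nissle 1 to 5 it was 1.25, 1.02, 0.54, 0.69 and 0.31, and in DNBS 1 to 5 it was 1.0, 1.03, 0.46, 0.63 and -0.01. In healthy 1b, 3, 4, 5 and 6 it was 0.15, 0.65, 0.32, -0.38 and 0.76. In each DNBS-treated group 2 of 5 samples exceeded the highest healthy sample. The difference from the healthy controls was 0.48 in the CEC group (95% interval -0.22 to 1.18), 0.46 in the Nissle group (-0.24 to 1.17) and 0.32 in the DNBS group (-0.38 to 1.02). The CEC and Nissle groups differed from the DNBS group by 0.16 (-0.54 to 0.86) and 0.14 (-0.56 to 0.85).

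**Figure D2:**
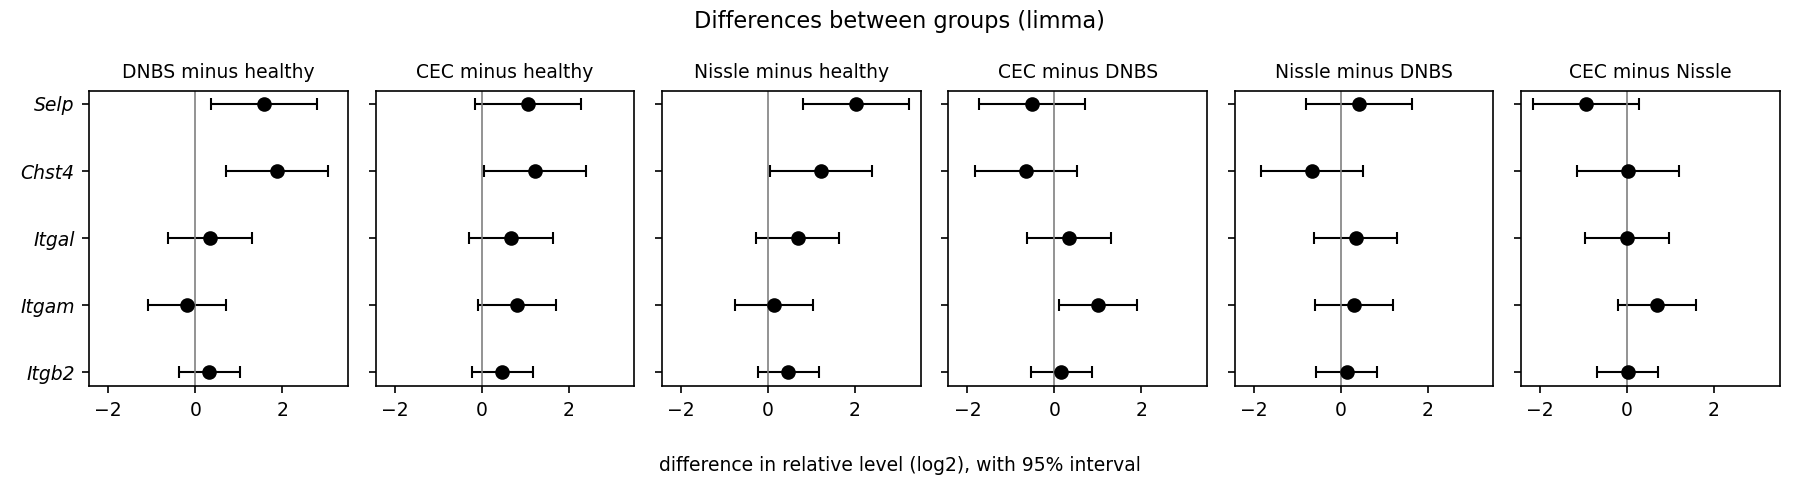
Difference in relative level (log2, horizontal axis) with its 95% interval from limma for the 5 genes determined in all samples, in 6 comparisons. For Selp and Chst4 against the healthy controls the estimates lie between 1.07 and 2.02, and the interval of Selp in the CEC group (-0.14 to 2.29) includes 0. The intervals of Itgal and Itgb2 include 0 in every panel.

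Counted by comparison, 0 of the 5 genes fitted with limma passed after adjustment, in comparisons that called 1 of 569 assays (0.176%) for each treated group against the healthy controls and 0 of 569 (0%) between treated groups. With same-numbered samples blocked, 2 assays were called between the DNBS group and the healthy controls, neither of them one of these genes. An unadjusted limma p under 0.05 with a higher level was found for Selp and Chst4 in the DNBS group against the healthy controls (6.68% of 569 assays), for the same genes in the Nissle group (2.81%), and for the same genes in the 3 treated groups together (4.04%). It was found for Chst4 alone in the CEC group against the healthy controls (1.76%), for Itgam alone in the CEC group against the DNBS group (6.68%), and for 0 of the 5 between Nissle and DNBS (1.58%) and between CEC and Nissle (0.879%). Relative to the healthy controls the level was higher for 5 of the 5 genes in the CEC group (median 0.82), 5 in the Nissle group (0.68) and 4 in the DNBS group (0.34). Over all assays 43.9%, 42.2% and 44.6% were higher, with medians of -0.078, -0.10 and -0.074. The Nissle and DNBS medians of the 5 genes are the Itgal differences. Without healthy 5, the Itgal difference for the DNBS group was -0.076, so its place among the higher genes rests on that sample. For the 3 treated groups together 5 of 5 were higher (median 0.57), with 43.4% of all assays. Between treated groups, 3 of 5 were higher in CEC than in DNBS (48% of all), 4 of 5 in Nissle than in DNBS (45%) and 3 of 5 in CEC than in Nissle (59.8%). In a test of any difference between the 4 groups, Selp ranked 13 and Chst4 ranked 23 of 569 (limma F test, adjusted p = 0.521 and 0.539), and 1 assay was called (0.176%).

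The difference between the levels of 2 assays in the same sample does not depend on the normalization and shows whether 1 chain moved relative to its partner. Itgam minus Itgb2, the Itgam level minus the Itgb2 level, equals the Itgb2 Ct minus the Itgam Ct, so that a higher value means more Itgam. It was 0.97, 0.87, 0.75, 0.85 and 0.62 cycles in CEC 1, 3, 5, 7 and 8. In DNBS 1 to 5 it was -0.72, -0.04, 0.20, 0.26 and 0.12 cycles. Every CEC sample was above every DNBS sample. How often other pairs of assays separate in this way was not computed. Among single assays, 11 of 569 (1.93%) separated fully upwards in this comparison. In Nissle 1 to 5 it was 0.75, 0.73, -0.53, -0.71 and 0.43, and in healthy 1b, 3, 4, 5 and 6 it was -0.19, 0.64, 0.84, 1.38 and -0.32, so that the Nissle and healthy samples lay on both sides.

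The mean of Itgam minus Itgb2 was 0.81 ± 0.13 cycles for CEC and -0.04 ± 0.40 for DNBS (SD, n = 5 each). The difference of 0.85 gave p = 0.00794, the smallest possible in an exact permutation test of 5 against 5, and an adjusted p of 0.167 over the 21 within-sample tests made. Without the group-mean value of CEC 5 it was 0.86 (exact permutation test, adjusted p = 0.167), and with 1 sample left out at a time it lay between 0.68 and 0.92. Against the Nissle group the CEC group differed by 0.68 (exact permutation p = 0.0476, adjusted p = 0.5), and against the healthy controls by 0.34 (exact permutation p = 0.325). Itgal minus Itgb2 differed by at most 0.22 cycles between any of the groups compared, with adjusted p-values of 0.774 to 0.968 (exact permutation tests). Selp minus Sele, in the samples with both, averaged 2.88 ± 0.71 cycles in the CEC group (n = 5), 3.43 ± 0.79 in the Nissle group (n = 3), 2.47 ± 1.17 after DNBS alone (n = 5) and 3.09 ± 0.72 in healthy controls (SD, n = 2), with an adjusted p of 0.774 in all 7 comparisons (exact permutation tests).

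**Figure D3:**
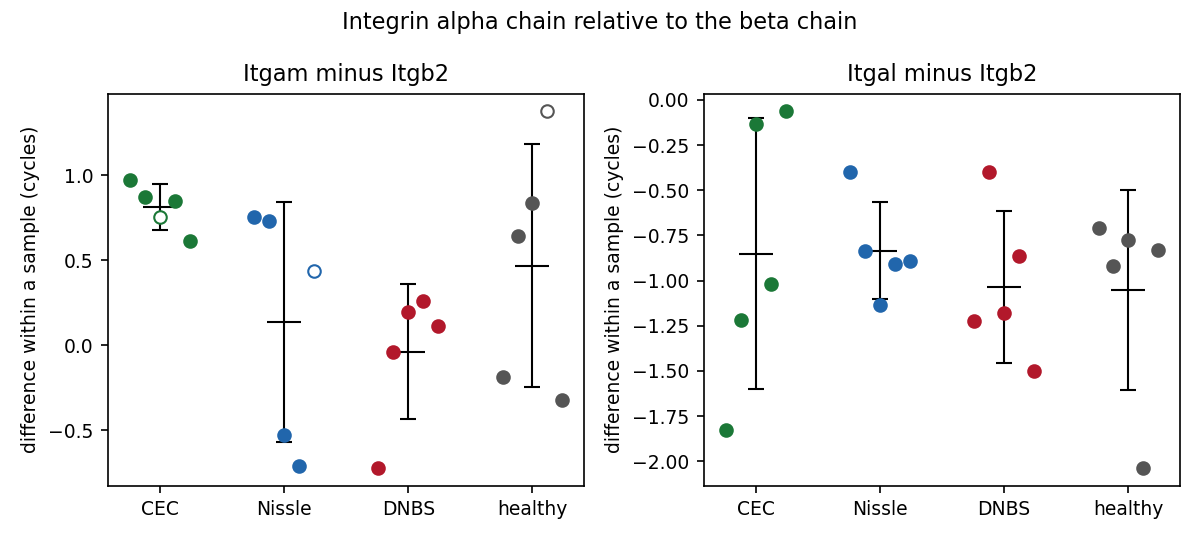
Level of an integrin alpha chain minus that of the beta chain within a sample (Ct of the beta chain minus Ct of the alpha chain, in cycles, vertical axis; higher means more alpha chain), with mean and SD per group; open circles rest on a group-mean value. For Itgam minus Itgb2 the CEC samples lie between 0.62 and 0.97 and the DNBS samples between -0.72 and 0.26, while the Itgal panel shows overlap of all groups.

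Within groups each alpha chain varied with the beta chain. After each group's mean was removed, Itgal and Itgb2 had r = 0.72 and rho = 0.63 over 20 samples (permutation within groups, adjusted p = 0.00690 and 0.0296 over 15 pairs of genes), and r = 0.58 without the 2 samples farthest from the median. For each pair here, the 2 farthest samples are those of the first-named gene, so far samples of the second gene stay in. Itgam and Itgb2 had r = 0.66 and rho = 0.69 (permutation, adjusted p = 0.0190 and 0.0296), and r = 0.52 without the 2 farthest. Chst4 and Itgb2 had r = 0.62 and rho = 0.66 (permutation, adjusted p = 0.0190 and 0.0296), and r = 0.53 without the 2 farthest. Selp and Sele had r = 0.78 and rho = 0.68 over the 15 samples with both (permutation, adjusted p = 0.0650 and 0.112), and r = 0.58 without the 2 farthest. Chst4 and Itgal had r = 0.75 and rho = 0.56 (permutation, adjusted p = 0.00705 and 0.0644), and r = 0.67 without the 2 farthest. Selp and Chst4 had r = 0.55 and rho = 0.55 (permutation, adjusted p = 0.0404 and 0.0644), and r = 0.48 without the 2 farthest. Without the group-mean values Itgam and Itgb2 had r = 0.78 over 17 samples (permutation, adjusted p = 0.00535) and Selp and Sele had r = 0.90 over 13 samples (adjusted p = 0.0509). Itgal and Itgam, which did not pass with all values (r = 0.37, permutation adjusted p = 0.165), had r = 0.63 over 17 samples without the group-mean values (adjusted p = 0.0257). Selp and Itgb2 likewise had r = 0.57 with all values (permutation adjusted p = 0.0531) and r = 0.62 without the group-mean values of other assays (adjusted p = 0.0257). All levels of a sample share its normalization and its RNA.

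The assays of other genes whose level followed these genes most closely, by the mean absolute difference over samples after each assay's own mean was removed, were sought among the 544 determined in all samples. Nearest to Selp were Lilrb3, an inhibitory receptor gene of myeloid cells (0.47 cycles over 20 samples), the endotoxin co-receptor gene Cd14 (0.52) and the neutrophil chemokine gene Cxcl1 (0.55). For Sele they were both assays of the monocyte chemokine gene Ccl7 (0.57 and 0.61 over 15 samples), followed by Selp (0.73). Chst4 was followed most closely by Hif1a (0.50), Ifng (0.55) and Fn1 (0.55), the genes of a hypoxia-response factor, interferon gamma and fibronectin. The integrin chains lay nearest to Ly86 for Itgal (0.31) and to the properdin gene Cfp for Itgam (0.39) and Itgb2 (0.23), and Itgb2 was itself the third nearest to Itgal (0.36). Removing only their own mean, Selp and Itgb2 deviated by 0.95 and 0.40 cycles on average, which sets the scale for these values.

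Selp, Chst4, Itgam and Itgb2 varied with neutrophil markers between samples of the same group. The 7 neutrophil markers measured of 12 listed (S100a8, S100a9, Ltf, Il8rb, Ncf1, Camp and Fpr1) had a mean level of -3.03 to 0.12 in the CEC group, -2.47 to 2.29 in the Nissle group, -2.44 to 0.36 after DNBS alone and -3.17 to -1.73 in healthy controls. With group means removed, Selp had r = 0.87 and rho = 0.81 with this mean over 20 samples (permutation, adjusted p = 0.0112 and 0.0140 over 18 relations), and r = 0.74 without the 2 samples farthest from the median. The 2 farthest samples are here those of the marker mean, not of the gene. For Itgb2 the values were r = 0.71 and rho = 0.78 (permutation, adjusted p = 0.00666 and 0.00774), with r = 0.75 without the 2 farthest. For Chst4 they were r = 0.70 and rho = 0.68 (permutation, adjusted p = 0.0123 and 0.0183), with r = 0.59 without them. For Itgam they were r = 0.64 and rho = 0.64 (permutation, adjusted p = 0.0245 and 0.0250), with r = 0.52 without the 2 farthest and r = 0.67 without the group-mean values. Itgal passed by r alone (r = 0.54, rho = 0.44, permutation adjusted p = 0.0245 and 0.118), and Sele over 15 samples by neither (r = 0.72, rho = 0.61, adjusted p = 0.0668 and 0.127). Without the group-mean values Sele had r = 0.97 with the neutrophil markers, for which no p-value was computed. Selp also varied with 8 macrophage, monocyte and dendritic cell markers (r = 0.78, rho = 0.74, permutation adjusted p = 0.00666 and 0.0179, and r = 0.69 without the 2 farthest), as did Itgb2 (r = 0.62, rho = 0.68, permutation adjusted p = 0.0298 and 0.0194, and r = 0.54 without the 2 farthest). Itgam passed with those markers by r alone (r = 0.61, rho = 0.57, permutation adjusted p = 0.0298 and 0.0723). Of 5 tested T cell markers, 4 had a value in every sample and were used. With their mean r lay between -0.36 and -0.11 for the 6 genes, with adjusted p-values of 0.187 to 0.657 (permutation). These relations were chosen after results of these data were known. No neutrophil, macrophage, monocyte, dendritic cell or T cell marker on the panel was undetermined throughout. The part of leukocyte content in the levels of these genes was not tested.

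**Figure D4:**
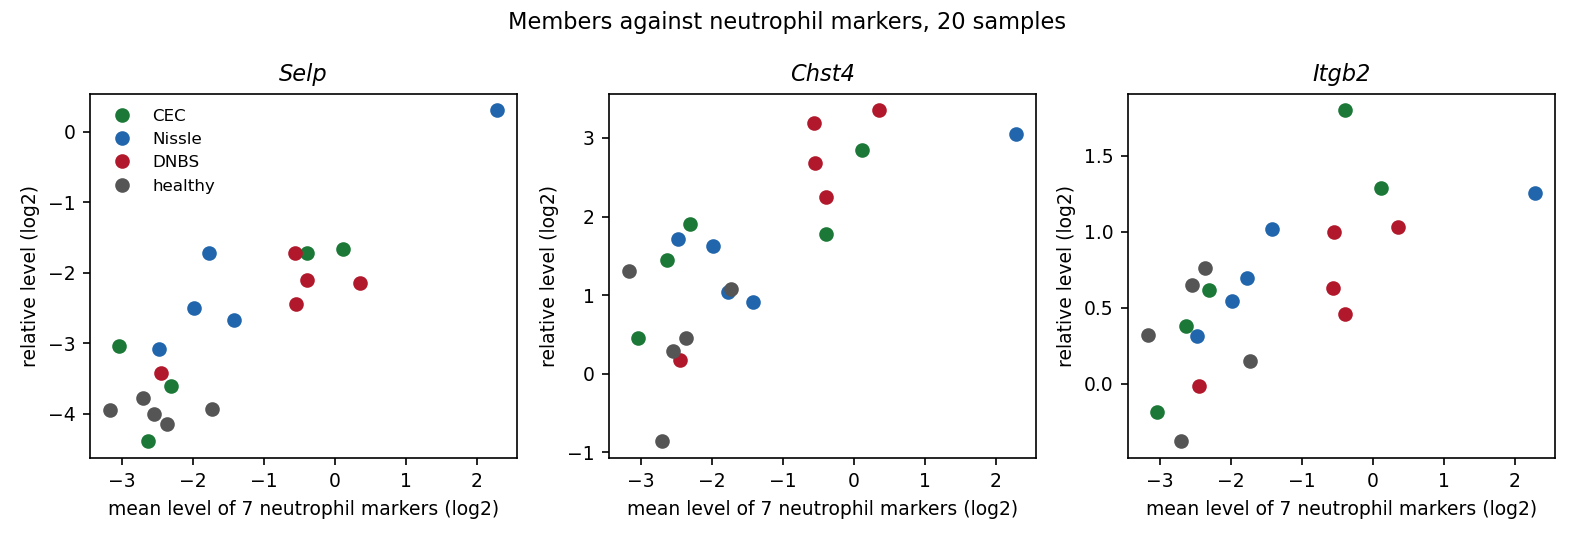
Relative level (log2, vertical axis) of Selp, Chst4 and Itgb2 against the mean relative level of 7 neutrophil markers (log2, horizontal axis), 1 point per sample, coloured by group, without removal of group means. Nissle 1 stands alone at 2.29 on the horizontal axis and has the highest Selp level, 0.31.

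Other genes of the adhesion pathway were few on the panel, and 0 of them passed with limma in any comparison. Of 36 other adhesion molecules and ligand-making enzymes listed, 4 had an assay: F11r, a junctional adhesion molecule, the hyaluronan receptor gene Cd44 and the sulfotransferases Chst1 and Chst2. Their median difference from the healthy controls was -0.17 in the CEC group, -0.07 in the Nissle group and -0.08 in the DNBS group, with 0 unadjusted p under 0.05. Chst2, which acts beside Chst4 on selectin ligands, differed by -0.15 between the DNBS group and the healthy controls (SE 0.39) and by 0.76 between the CEC and DNBS groups (SE 0.39, limma adjusted p = 0.476).

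Cytokines, cytokine receptors and NF-kB subunits that switch on endothelial selectins were represented by 15 tested genes of 24 listed. Tnf, Il4 and Il13 were on the panel but had too few values to be fitted. In the DNBS group 12 of the 15 were higher than in the healthy controls, with a median of 0.27, while 44.6% of all assays were higher. The gene of interleukin-6, Il6, differed by 4.62 (SE 1.22) and Il1b, the gene of interleukin-1 beta, by 1.81 (SE 0.80), neither of which passed (limma adjusted p = 0.122 and 0.298). Il6 stands here for the assay with most values, and the other tested Il6 assay, which had 1 very early Ct in healthy 5, differed by -4.06 (SE 3.75). In the CEC group 2 of the 15 were higher than in the DNBS group, with a median of -0.35, while 48% of all assays were higher. There Il6 differed by -2.85 (SE 1.22, limma adjusted p = 0.444) and Il1b by -1.98 (SE 0.80, limma adjusted p = 0.417). Both comparisons use the same DNBS samples. The 9 receptors and kinases that activate integrins had medians between -0.08 and 0.13 over the 6 comparisons between groups. C3, whose cleavage product is bound by Mac-1, differed by -0.47 between the CEC and DNBS groups (SE 0.42, limma adjusted p = 0.658).

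Markers of further cell types are given for the comparison in which Itgam differed most. Between the CEC and DNBS groups the epithelial markers Ccl25 and Apoa1 differed by 1.12 (SE 0.49) and 1.16 (SE 0.45). Cx3cr1 and Cd86, from the list of macrophage, monocyte and dendritic cell markers, differed by 1.28 (SE 0.40) and 1.25 (SE 0.55). None of these differences passed (limma adjusted p = 0.385 to 0.455). Of the 8 macrophage, monocyte and dendritic cell markers 3 were higher in the CEC group than in the DNBS group, with a median of -0.31, and the scavenger receptor gene Cd163 differed by -0.27 (SE 0.50). The 7 neutrophil markers were lower in the CEC group in 7 of 7 cases, with a median of -1.18 and 0 called. The mean level of 8 macrophage, monocyte and dendritic cell markers ranged from -1.42 to -0.17 in the CEC group and from -1.40 to -0.36 in the DNBS group. The platelet chemokine gene Ppbp, the only platelet marker of 6 listed with an assay, had a level of -5.64 to -3.04 in the CEC group, -5.02 to -2.71 in the Nissle group, -5.95 to -4.06 after DNBS alone and -4.93 to -4.06 in healthy controls. Its difference between the DNBS group and the healthy controls was -0.45 (SE 0.55), where that of Selp was 1.59. The part of these cells in the differences was not tested.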

How the data were processed

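The deposited table holds raw Ct values in cycles for 648 assays, not normalized per the file headers, whose first line calls it a truncated example. Per the labels' protocols, mirVana RNA was run on OpenArray plates. Baseline and threshold settings are not given in the sources used here. A Ct of 40 (1273 cells) and 1 empty cell were treated as undetermined. Symbols are those of the file.

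Relative levels were the sample's mean Ct over 544 assays minus the Ct. The 569 assays that had 3 or more values per group were fitted with limma 3.58.1 (R 4.3.3): 4 group means, all 20 samples, empirical Bayes with trend, Benjamini-Hochberg at 0.05 per comparison. Sele was compared by Fisher's exact test and exact permutation of ranks, and within-sample differences by exact permutation. Correlations used 100000 permutations within groups (Python 3.11.15, scipy 1.17.1, numpy 2.4.6). Fits were tested on simulated data. Precision rests on 5 samples per group, which gave a median SE of 0.42 for log2 differences.

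The genes, lists and tests were chosen with earlier results of these data known. Named genes are the 6 described, the 3 nearest assays to each, and up to 3 genes per list with the smallest p in the F test. In lists, a gene with several assays was taken from the assay with most values, then the lowest mean Ct. The lists were other adhesion molecules, selectin-inducing cytokines, integrin-activating receptors, Mac-1 ligands, and markers of neutrophils, macrophages, T cells, B cells, endothelium, platelets and epithelium. Sample numbers shared by groups are not said to mark a litter or batch. Deviations of same-numbered samples from their group means had correlations of 0.18, 0.14 and 0.49 between the DNBS and healthy groups. Over all pairs of groups the correlations had both signs, from -0.40 (Nissle 4 and healthy 4) to 0.49 (DNBS 5 and healthy 5). Any pairing by number would come from the data. Alternatives covered normalization, undetermined values, filters, sample weights, the block, the 3 doubtful Nissle samples, group-mean values (added after seeing the data, as was the rank test of Sele with samples left out) and each sample left out.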

Additional observations from a re-analysis of the deposited data

Results flagged for a closer look

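The Itgal level of healthy 5, -2.42, lay far below the other 4 healthy samples, the nearest of which was at -0.56. The same sample was far from its group in Itgal minus Itgb2, at -2.04 cycles with the nearest at -0.92. Healthy 5 also held 37 group-mean values, the most of any sample, though neither of these 2. In all, 32 sets of 4 or 5 samples were examined and 2 had a sample this far out, where chance gives about 1 in 20. Without healthy 5 the Itgal difference between the DNBS group and the healthy controls was -0.076, against 0.34 with it, and neither passed (limma).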

How the results depend on the processing

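The Selp and Chst4 differences from the healthy controls kept their direction in every fit made, as did those of Itgal and Itgb2 except Itgal without healthy 5. The calls depended on the weights: with array weights the DNBS group against the healthy controls had 101 called assays, among them Selp (1.82) and Chst4 (1.85), the CEC against the DNBS group had 47, the 3 treated groups together 4 and the test of any difference 48, and several differences without a call changed sign, namely Itgam in the Nissle group against the healthy controls (-0.26), Itgb2 between CEC and DNBS (-0.11), Selp, Itgam and Itgb2 between Nissle and DNBS (-0.16, -0.079 and -0.029), and Itgal and Itgb2 between CEC and Nissle (0.48 and -0.082). With the sample number as a replicate block, 2 assays were called between the DNBS group and the healthy controls and 0 in the other comparisons with the healthy controls and in the test of any difference; Selp and Chst4 were at 1.28 and 1.89 (limma adjusted p = 0.611 and 0.400) for the DNBS group, and the sign turned for Itgam in the Nissle group (-0.62) and in the 3 treated groups together (-0.32), each against the healthy controls, and for Itgal between CEC and Nissle (0.42). No other call changed under the block.

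The count of called assays between the CEC group and the healthy controls was 0 with quantile normalization, with each pair of groups fitted alone, without Nissle 3, 4 and 5 and without the group-mean values. With no filter, 2 assays were called for the CEC group, the Nissle group and the 3 groups together against the healthy controls and for any difference. Fitted alone, the DNBS group and the healthy controls gave 9 calls and the Nissle group and the healthy controls 0. Without Nissle 3, 4 and 5 the Nissle group gave 0 and the 3 groups together 2. Between the CEC and Nissle groups, where differences lay near 0, signs turned with reference assays (Chst4 -0.15, Itgb2 -0.16), quantile normalization (Chst4 -0.027), without Nissle 3, 4 and 5 (Chst4 -0.29, Itgam -0.28, Itgb2 -0.35, Sele mean rank -1.4) and without the group-mean values (Itgb2 -0.0036). Without Nissle 3, 4 and 5 the Sele rank difference against the healthy controls passed for the DNBS group (5.0, exact permutation, adjusted p = 0.0278) and for the 3 groups together (7.65, adjusted p = 0.0147). The DNBS comparison holds no Nissle sample. Its rank difference and unadjusted p (0.00794) were unchanged, and only the adjustment over 7 comparisons moved. Itgam minus Itgb2 and Selp minus Sele in the Nissle group against the healthy controls became 0.27 and -0.068. Without the group-mean values, Itgam minus Itgb2 in the 3 groups together became 0.017, and Selp minus Sele became 0.020 in the CEC group and 0.0076 in the 3 groups together. Apart from that change in adjustment for Sele, the cause was not tested for any of these.

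Leaving out 1 sample at a time, the called assays were 0 to 1 for the CEC group, 0 to 1 for the Nissle group and 1 to 7 for the DNBS group, each against the healthy controls. The ranges that crossed 0 or the threshold were, for Chst4, 1.55 to 2.41 (DNBS against healthy) and -0.27 to 0.36 (CEC against Nissle). For Itgal they were -0.16 to 0.28 (CEC against Nissle) and -0.076 to 0.62 (DNBS against healthy), for Itgam -0.14 to 0.36 (Nissle against healthy), and for Itgb2 -0.10 to 0.40 (CEC against DNBS), -0.24 to 0.26 (CEC against Nissle) and -0.015 to 0.26 (Nissle against DNBS). Selp between Nissle and DNBS ranged from -0.13 to 0.72. The Sele mean rank difference from the healthy controls ranged from 4.5 to 5.0 for DNBS (exact permutation, adjusted p = 0.0278 to 0.111) and from 6.33 to 7.6 for the 3 groups (0.0278 to 0.163). For DNBS the adjusted p fell under 0.05 without CEC 5, Nissle 4 or Nissle 5. None of these samples is in that comparison, so only its adjustment over 7 comparisons moved. Itgal minus Itgb2 ranged from -0.10 to 0.23 (3 groups against healthy), -0.014 to 0.43 (CEC against DNBS), -0.21 to 0.23 (CEC against Nissle), -0.044 to 0.45 (CEC against healthy), -0.23 to 0.14 (DNBS against healthy) and -0.027 to 0.30 (Nissle against healthy). Itgam minus Itgb2 for the 3 groups ranged from -0.36 to 0.062, and Selp minus Sele from -0.76 to 0.26 for the 3 groups, -0.72 to 0.30 for CEC and -0.18 to 0.84 for Nissle, against healthy. Setting undetermined values to cycle 40, using assays with a value in every sample, dropping values under cycle 10 and calling values from cycle 35 undetermined changed no direction or call of these genes.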

Other observations

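The group-mean values were not evenly spread over the samples. They occurred in 123 assays, with 1 to 37 per sample. Of the 2592 combinations of assay and group, 7 had exactly 1 of 5 samples undetermined, while 64 had exactly 2 of 5 undetermined. The B cell complement receptor gene Cr2, the only B cell marker with an assay, had a level of -3.22 ± 1.79 in the CEC group, -3.97 ± 1.07 in the Nissle group, -2.68 ± 0.73 after DNBS alone and -2.05 ± 0.53 in healthy controls (SD, n = 5 each). Its difference between the Nissle group and the healthy controls was -1.91 (SE 0.68) and did not pass (limma adjusted p = 0.488).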
